A study of Homo sapiens with 9 samples.

Results

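The proteasome genes described here are all genes whose symbol starts with PSMA, PSMB, PSMC, PSMD, PSME, PSMF or PSMG in the platform annotation. The rule gave 50 of the 19775 genes measured by a probe set of their own. Of these, 42 encode subunits, regulators or assembly factors of the proteasome, and 8 only share the prefix and are given apart at the end. PSMA6, PSMB11, PSMC5, PSMD7, PSMD13 and PSME2 were not analysed here, PSMA6 and PSME2 because their probe sets also name another gene. Each gene was read by its brightest probe set.

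RNA came from Huh7, a human hepatocarcinoma cell line, and was hybridised to 9 Affymetrix arrays, 3 for each siRNA. The control cells received a scramble siRNA. In the SPTLC123 group the siRNA targeted SPTLC1, SPTLC2 and SPTLC3, subunits of serine palmitoyltransferase, the enzyme that starts sphingolipid synthesis. In the DEGS1 group it targeted the desaturase that turns dihydroceramide into ceramide. All groups received siRNA at a final 20 nM. The labels place the samples at 72 h after siRNA treatment, whereas the protocol adds a low-serum conditioned medium at 72 h and collects the cells a day later, and all groups share this medium. The groups are of a single cell line, the silencing was partial, and cells that took up no siRNA were not separated from the rest. The labels call the samples of a group biological replicates.

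The proteasome degrades proteins tagged with ubiquitin. Its 20S core is a barrel of alpha and beta rings, with the proteolytic sites on 3 of the beta subunits, and the 19S cap recognises, unfolds and feeds in the substrate. In most cells the subunit genes are transcribed together, and NFE2L1 raises them when proteasome activity falls. NRF2, encoded by NFE2L2, acts on some of them through antioxidant response elements, and interferon induces alternative catalytic subunits and activators.

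Upstream sequences were searched for 2 kinds of regulatory element, the antioxidant response element and the interferon-stimulated response element. Of the 8 proteasome genes called in any comparison, the 5 shown were picked because a window of theirs holds a match. The windows of PSMA5, PSMC6 and PSMD14, which were called too, hold neither element and are not shown. They are RefSeq sequences of build GRCh38.p14, written 5′ to 3′ on the strand of the gene, and each window covers the 250 bases before an annotated transcript start. Capitals mark a match, searched on both strands. The short antioxidant form is TGACNNNGC, the long form is the same with an A after it, and the interferon form is GAAA, any 2 bases and GAAA again. The windows are chr6:3258697-3258946 for PSMG4 (plus strand), chr21:39183452-39183701 for PSMG1 (minus strand), chr17:39980557-39980806 for PSMD3 (plus strand) and chr2:53970994-53971243 for PSME4 (minus strand). The windows of PSMG4 and PSMG1 belong to starts that are not at the outer end of the annotated gene. For PSMA4 a stretch of 30 bases at chr15:78540650-78540679 (plus strand) is given, whose match lies 126 to 117 bases before a further annotated start of that gene.
PSMG4: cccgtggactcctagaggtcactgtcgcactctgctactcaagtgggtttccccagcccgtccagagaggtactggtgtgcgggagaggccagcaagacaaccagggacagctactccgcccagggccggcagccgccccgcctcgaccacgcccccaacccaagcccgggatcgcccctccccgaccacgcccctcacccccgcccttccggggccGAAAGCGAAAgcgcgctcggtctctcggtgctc
PSMG1: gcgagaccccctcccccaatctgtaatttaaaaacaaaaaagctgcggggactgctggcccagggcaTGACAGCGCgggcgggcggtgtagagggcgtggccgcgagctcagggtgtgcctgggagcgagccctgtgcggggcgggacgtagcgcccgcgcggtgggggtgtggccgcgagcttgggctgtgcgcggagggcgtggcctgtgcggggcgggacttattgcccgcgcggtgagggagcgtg
PSMD3: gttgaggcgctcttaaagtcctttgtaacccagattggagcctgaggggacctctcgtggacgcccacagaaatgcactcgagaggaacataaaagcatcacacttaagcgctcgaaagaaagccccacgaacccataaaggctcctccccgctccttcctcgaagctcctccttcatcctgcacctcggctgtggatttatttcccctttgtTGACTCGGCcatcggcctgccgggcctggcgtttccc
PSME4: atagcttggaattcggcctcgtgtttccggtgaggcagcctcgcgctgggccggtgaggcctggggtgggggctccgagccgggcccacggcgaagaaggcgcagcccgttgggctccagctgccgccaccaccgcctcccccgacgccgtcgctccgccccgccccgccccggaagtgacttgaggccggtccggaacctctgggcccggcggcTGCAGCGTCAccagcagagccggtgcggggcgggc
PSMA4: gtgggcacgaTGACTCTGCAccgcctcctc
PSMG4 held the interferon element, PSMG1 and PSMD3 the short antioxidant form, and PSMA4 and PSME4 the long form. A window was at hand for 36 of the 42 proteasome genes. The long form stood in the windows of 6 of them, PSMA4, PSMB3, PSMB9, PSMD12, PSMD9 and PSME4, which is 16.7%, against 3.22% of 27305 genes and 2.59% of 35116 windows. The short form, which every long match contains, stood in 11 genes (30.6%, against 13.22% of all genes), and the interferon form in 4, PSMA4, PSMB10, PSMB4 and PSMG4 (11.1%, against 3.71%). Several genes have more than 1 window, which raises their chance of a match, and a match describes letters only.

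The arrays differed in a way that the groups do not explain. In the arrays SPTLC123 3, DEGS1 2 and DEGS1 3 the 5′ control probe sets of actin were weak, with 3′ minus 5′ log2 differences of 1.15, 1.31 and 1.25 against 0.40 to 0.56 in the other 6 arrays. None of the 3 is a scramble array, so weak 5′ signal is unevenly spread over the groups. A fit that leaves them out keeps 1 DEGS1 array, whose spread is assumed to be that of the other groups. The 3 targeted genes measured followed their labels: on the log2 scale SPTLC1 was lower by 2.27 and SPTLC2 by 1.05 in SPTLC123 arrays, and DEGS1 by 3.73 in DEGS1 arrays. SPTLC3 was not analysed here. All 10 measured hepatocyte markers exceeded the median probe set (4.87), as did 2 of 4 leukocyte markers (CD3D and LYZ), 2 of 4 endothelial, 2 of 6 stellate and fibroblast and 4 of 5 cholangiocyte markers. Of the leukocyte, endothelial and fibroblast lists, the markers above it were LYZ (mean 12.77), CD3D (5.14), PECAM1 (7.61), VWF (4.88), COL1A1 (7.51) and DES (5.35). Among those below it were PTPRC (3.54), CDH5 (3.14) and LUM (3.21). Some markers moved with the groups. The mean log2 level of the hepatocyte markers was 13.15 to 13.27 in scramble, 12.81 to 12.93 in SPTLC123 and 12.91 to 13.06 in DEGS1 arrays, with 4 of 10 called in SPTLC123 and 3 in DEGS1 against scramble. That of the cholangiocyte markers was 7.65 to 7.82, 7.96 to 8.10 and 7.81 to 8.11, with 2 of 5 called in SPTLC123 and 0 in DEGS1. Of the leukocyte markers 2 of 4 were called in SPTLC123 and 1 in DEGS1. Their part in the proteasome values was not tested.

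Most of the 42 proteasome genes were not called in any comparison. A gene is called at an adjusted p under 0.05 in limma, with Benjamini-Hochberg adjustment over all genes. In SPTLC123 against scramble 4 of 42 were called, all higher (9.52%, against 9.94% of all genes called in either direction, 5.31% higher and 4.63% lower): PSMG4, PSMA4, PSMD3 and PSMD14. In DEGS1 against scramble 4 were called as well (9.52%, against 9.7% in either direction, 4.66% higher and 5.04% lower), with PSMG4 and PSMA4 higher and PSMG1 and PSME4 lower. In DEGS1 against SPTLC123 6 were called, all lower (14.3%, against 8.66% in either direction, 3.7% higher and 4.96% lower): PSMG1, PSMG4, PSMC6, PSMA5, PSMD14 and PSME4. In either direction the shares against scramble were near the background, and both of these comparisons use the same 3 scramble arrays. With the 3 weak arrays left out, PSMG4 and PSMA4 kept their calls in SPTLC123 against scramble, and the 12 other calls of the 3 comparisons were lost. That fit keeps 1 DEGS1 array, and the share of all genes called fell in it in each comparison too. Over all 9 arrays, groups did not overlap for 10 higher and 3 lower genes in SPTLC123 against scramble. The shares of all genes were 13.5% and 15.4%, or 28.9% together. The numbers were 5 and 7 in DEGS1 against scramble (12.6% and 13.7%, 26.3% together) and 2 and 12 in DEGS1 against SPTLC123 (13.1% and 12.4%, 25.5% together).

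The medians of the 42 genes differed in sign between comparisons. The median log2 change of the 42 genes was 0.09 in SPTLC123 against scramble, with 30 above 0 (all genes: median -0.03, 44.5% above 0). In DEGS1 against scramble it was -0.08, with 13 above 0 (all genes: -0.01, 47%). In DEGS1 against SPTLC123 it was -0.15, with 6 above 0 (all genes: 0.01, 53.2%). When the 3 weak arrays were left out, the medians were 0.16, 0.03 and -0.08, and 25 genes lay above 0 in DEGS1 against scramble, so the direction of that median turned.

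**Figure D1:**
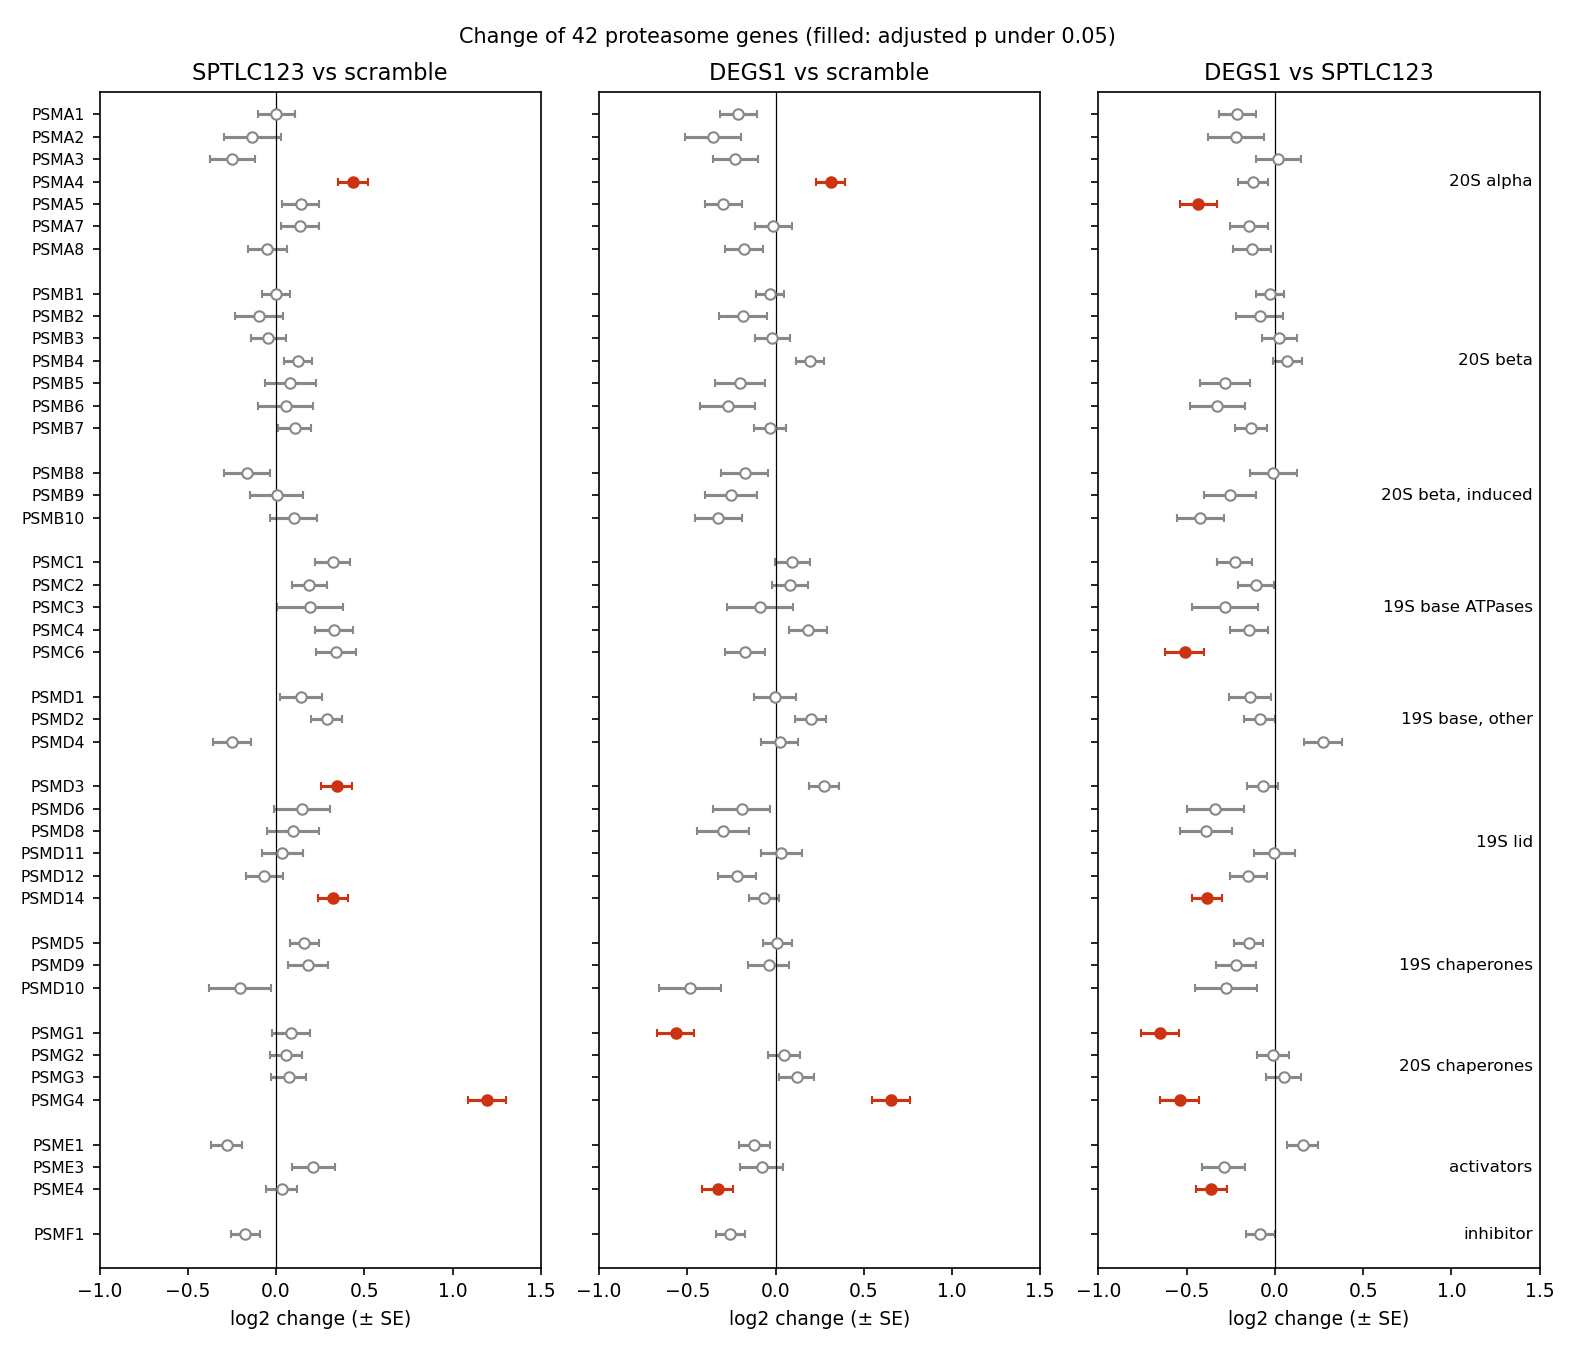
Log2 change of each of the 42 proteasome genes (vertical axis, ordered by subcomplex) in the 3 comparisons, with bars of 1 SE of the limma fit on either side; filled points are called at an adjusted p under 0.05. PSMG4 stands farthest to the right in both comparisons against scramble (1.20 and 0.66), and all filled points of DEGS1 against SPTLC123 lie left of 0.

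The largest called changes among the 42 genes were those of 2 assembly chaperones, PSMG4 and PSMG1. PSMG4, which with PSMG3 forms a chaperone of alpha-ring assembly, had log2 levels of 7.55, 7.68 and 7.65 in scramble, 8.81, 8.63 and 9.03 in SPTLC123 and 8.23, 8.36 and 8.26 in DEGS1 arrays. The 3 groups did not overlap, with SPTLC123 highest and DEGS1 between. The rise in SPTLC123 over scramble was 1.20 ± 0.11 (SE, n = 3 per group; 2.29-fold; adjusted p = 7.5e-05) and in DEGS1 0.66 ± 0.11 (1.58-fold; adjusted p = 0.0041). DEGS1 was below SPTLC123 by a log2 change of -0.54 (adjusted p = 0.011). The calls held with each array left out, where the change in SPTLC123 ran from 1.09 to 1.29. Without the 3 arrays with weak 5′ signal the change was 1.09 in SPTLC123 (adjusted p = 0.0010) and 0.60 in DEGS1 (adjusted p = 0.087), and DEGS1 against SPTLC123 was at -0.49 (adjusted p = 0.17).

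PSMG1, the partner of PSMG2 in the other alpha-ring chaperone, went the opposite way in DEGS1. Its log2 levels were 10.94, 10.79 and 10.91 in scramble, 11.10, 10.93 and 10.87 in SPTLC123 and 10.46, 10.16 and 10.32 in DEGS1 arrays. All DEGS1 arrays lay below all others, while scramble and SPTLC123 overlapped. The log2 change was -0.57 ± 0.11 against scramble (0.675-fold, adjusted p = 0.0077) and -0.65 ± 0.11 against SPTLC123 (adjusted p = 0.0035), and both calls held with each array left out. In the array DEGS1 1, whose 5′ signal was not weak, PSMG1 was still 0.42 below the scramble mean, but with the 3 weak arrays left out the call was lost (adjusted p = 0.22), as was that against SPTLC123 (-0.55, adjusted p = 0.12). PSMG2 changed by 0.06 and 0.05 and PSMG3 by 0.07 and 0.12 in SPTLC123 and DEGS1 against scramble, none of them called. PSMG1 itself changed by 0.08 in SPTLC123, close to PSMG2, so the values of this pair stood apart in DEGS1. Differences between partners were not tested.

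The chaperones of the 19S base were not called. PSMD5, which holds the base ATPases during assembly, was 0.16 higher in SPTLC123 without overlap (adjusted p = 0.28). PSMD9 was 0.18 higher in SPTLC123 (adjusted p = 0.39). PSMD10, also known as gankyrin, was 0.21 lower in SPTLC123 (adjusted p = 0.55) and 0.48 lower in DEGS1 (adjusted p = 0.11), a difference of 0.17 in the array DEGS1 1 alone. Its dimmer probe set read 9.78, 10.27 and 10.06 in scramble and 9.95, 8.81 and 8.59 in DEGS1 arrays.

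In the alpha ring of the 20S core only PSMA4 was called against scramble, and it was higher under both siRNAs. Its log2 levels were 12.08, 12.09 and 12.08 in scramble, 12.52, 12.57 and 12.46 in SPTLC123 and 12.48, 12.36 and 12.34 in DEGS1 arrays. The scramble arrays were almost identical and lay below all 6 others, and the siRNA groups overlapped. PSMA4 rose by 0.44 ± 0.08 in SPTLC123 (1.35-fold, adjusted p = 0.0074) and by 0.31 ± 0.08 in DEGS1 (1.24-fold, adjusted p = 0.040). The first call held in all 21 alternatives. The second was lost in 13 of 21, among them the fits without any 1 scramble or DEGS1 array, SPTLC123 1 or SPTLC123 2 (adjusted p 0.056 to 0.11). With the 3 weak arrays left out it was 0.40 (adjusted p = 0.18).

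PSMA5 was the other alpha subunit with a call. Its log2 levels were 11.20, 11.16 and 11.21 in scramble, 11.46, 11.36 and 11.16 in SPTLC123 and 11.05, 10.81 and 10.82 in DEGS1 arrays. DEGS1 arrays lay below both other groups, and SPTLC123 spanned the scramble levels. Against SPTLC123 it fell by 0.43 on the log2 scale (adjusted p = 0.027), a call lost without SPTLC123 1, SPTLC123 2, DEGS1 2 or DEGS1 3 (adjusted p 0.091 to 0.12) and without all 3 weak arrays (-0.36, adjusted p = 0.26). PSMA2 was 0.36 lower in DEGS1 than in scramble (adjusted p = 0.20) and PSMA3 0.25 lower in SPTLC123 (adjusted p = 0.28). PSMA2 in DEGS1 1, at 12.58, was at the scramble level, and the 2 weak arrays were at 12.03 and 12.01. PSMA1 and PSMA7 were not called in any comparison. PSMA8, the testis form of the alpha ring, was near background at 3.18 in scramble.

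None of the 7 constitutive beta subunits was called in any comparison. PSMB4 was the only one whose siRNA groups both lay above scramble without overlap, by 0.12 in SPTLC123 (adjusted p = 0.41) and 0.20 in DEGS1 (adjusted p = 0.16). On its second brightest probe set both groups overlapped scramble, which read 12.24, 12.37 and 12.36. There SPTLC123 arrays were at 12.47, 12.49 and 12.22 and DEGS1 arrays at 12.54, 12.19 and 12.08. PSMB2 had the lowest value of the ring in SPTLC123, at -0.10 against scramble (adjusted p = 0.74). Of the catalytic subunits, PSMB5 changed by 0.08 and -0.20, PSMB6 by 0.05 and -0.27 and PSMB7 by 0.11 and -0.03 in SPTLC123 and DEGS1 against scramble. When the 3 weak arrays were left out, PSMB5 and PSMB6 turned to 0.12 and 0.06 in DEGS1 against scramble.

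The interferon-induced counterparts were low. PSMB8 (3.56 in scramble) and PSMB9 (4.32) were below the median probe set, where a change cannot be read well. PSMB10 lay higher, at 7.05, 6.93 and 7.28 in scramble, 7.29, 7.34 and 6.94 in SPTLC123 and 6.92, 6.63 and 6.75 in DEGS1 arrays. DEGS1 arrays were lowest, with a change of -0.32 against scramble (adjusted p = 0.16) and -0.42 against SPTLC123 (adjusted p = 0.080), neither called. Among the activators PSME1, a subunit of the interferon-induced cap, was 0.28 lower in SPTLC123 without overlap (adjusted p = 0.070). PSME3, the nuclear activator, changed by 0.21 and -0.08 in SPTLC123 and DEGS1 on its brightest probe set. The second brightest read 9.84, 9.71 and 10.18 in scramble and 9.99, 8.60 and 8.66 in DEGS1 arrays. The third read 9.61, 9.51 and 9.85 in scramble and 9.78, 8.49 and 8.59 in DEGS1 arrays. Both were low in all 3 arrays with weak 5′ signal. In SPTLC123 1, 2 and 3 the second brightest read 10.21, 10.22 and 9.17 and the third 10.02, 10.05 and 9.035.

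PSME4, the activator PA200, was lower in DEGS1 than in each of the other groups on its brightest probe set. Its log2 levels were 10.26, 10.13 and 10.25 in scramble, 10.26, 10.23 and 10.25 in SPTLC123 and 9.98, 9.79 and 9.88 in DEGS1 arrays. Scramble and SPTLC123 coincided and all DEGS1 arrays lay lower. The change was -0.33 ± 0.09 against scramble (adjusted p = 0.039) and -0.36 ± 0.09 against SPTLC123 (adjusted p = 0.027). Against scramble the call was lost in 13 of 21 alternatives, among them the fits without any 1 scramble array, SPTLC123 1, SPTLC123 2, DEGS1 2 or DEGS1 3 (adjusted p 0.053 to 0.16). Against SPTLC123 it was lost without any 1 SPTLC123 array, DEGS1 2 or DEGS1 3 (adjusted p 0.054 to 0.12). Without the 3 weak arrays the change was -0.23 against scramble (adjusted p = 0.49) and -0.26 against SPTLC123 (adjusted p = 0.44). The other probe sets of PSME4 differed from each other. The second brightest was 0.82 lower in DEGS1 than in scramble (adjusted p = 0.21 over all probe sets). The dimmest read 7.85, 7.87 and 7.97 in scramble, 8.19, 7.92 and 8.25 in SPTLC123 and 7.97, 7.99 and 8.16 in DEGS1 arrays, a change of 0.14 in DEGS1 in the other direction (adjusted p = 0.52). Over all probe sets the brightest one had an adjusted p of 0.069 against scramble. On its brightest probe set PSMF1, the proteasome inhibitor, was lower than scramble without overlap in both groups. The difference was 0.17 in SPTLC123 (adjusted p = 0.23) and 0.26 in DEGS1 (adjusted p = 0.074). The second brightest read 10.40, 10.60 and 10.52 in scramble and 10.42, 10.45 and 10.22 in SPTLC123 arrays, which overlapped.

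**Figure D2:**
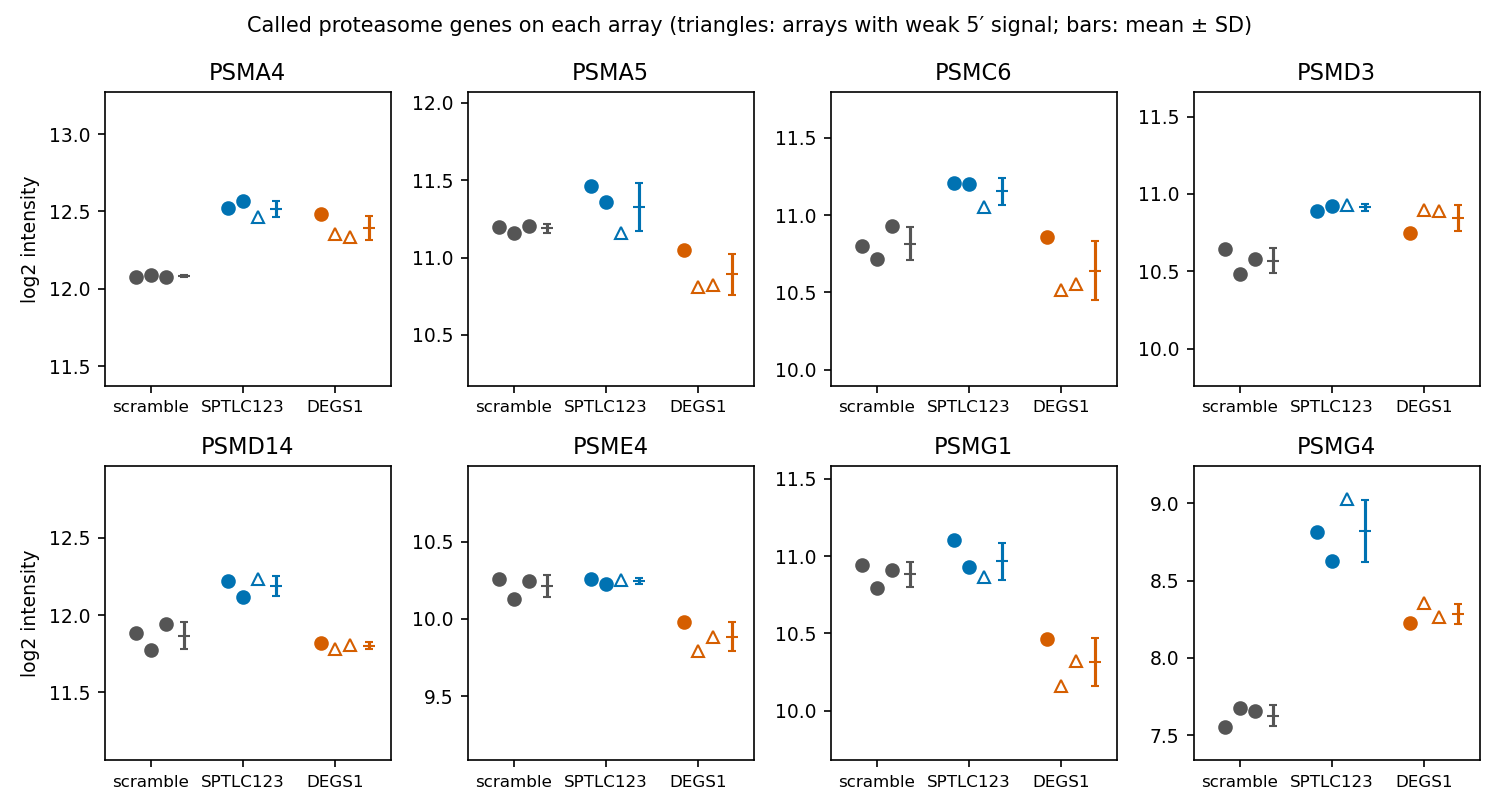
Log2 level of each called proteasome gene in every array (points), by siRNA group, with a bar for the group mean ± SD of 3 arrays; open triangles are the 3 arrays with weak 5′ signal. Each panel spans the same log2 range, so PSMG4 shows the widest separation and PSMA4 the tightest scramble group.

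The ATPases of the 19S base unfold the substrate. All 5 measured, PSMC1, PSMC2, PSMC3, PSMC4 and PSMC6, were higher in SPTLC123 than in scramble, by 0.19 to 0.34, and none was called (lowest adjusted p = 0.066, for PSMC1). Their changes in DEGS1 against scramble ran from -0.17 for PSMC6 to 0.18 for PSMC4. PSMC6 had log2 levels of 10.80, 10.71 and 10.93 in scramble, 11.21, 11.20 and 11.05 in SPTLC123 and 10.86, 10.51 and 10.55 in DEGS1 arrays. SPTLC123 lay above both other groups. Against SPTLC123, DEGS1 fell by 0.51 on the log2 scale (adjusted p = 0.017), which was lost without SPTLC123 1, SPTLC123 2, DEGS1 2 or DEGS1 3 (adjusted p 0.067 to 0.082) and without all 3 weak arrays (-0.34, adjusted p = 0.33). With the actin difference of each array as a covariate, added after the arrays were seen, PSMC1, PSMC3, PSMC4 and PSMC6 were called higher in SPTLC123, by 0.34 to 0.41. PSMC3 was 11.40 and 11.39 in SPTLC123 1 and 2 but 10.87 in SPTLC123 3, and 11.37 in DEGS1 1 but 10.75 and 10.69 in DEGS1 2 and 3.

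Of the other base subunits PSMD2, a scaffold that binds shuttle receptors, was 0.29 higher in SPTLC123 (adjusted p = 0.062) and 0.20 higher in DEGS1 (adjusted p = 0.18), both without overlap. PSMD4, a ubiquitin receptor, was 0.25 lower in SPTLC123 (adjusted p = 0.19). PSMD1, a base scaffold, was 0.14 higher in SPTLC123 (adjusted p = 0.55) and changed by -0.0017 in DEGS1.

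In the lid 2 genes were called. PSMD14, the deubiquitinase that removes the ubiquitin chain, had log2 levels of 11.89, 11.77 and 11.94 in scramble, 12.22, 12.11 and 12.23 in SPTLC123 and 11.82, 11.78 and 11.81 in DEGS1 arrays. SPTLC123 lay above both other groups, which overlapped, and its weak array was not low. It rose by 0.32 ± 0.09 in SPTLC123 over scramble (adjusted p = 0.038) and was lower in DEGS1 than in SPTLC123, at -0.39 ± 0.09 (adjusted p = 0.018). The first call was lost without any 1 scramble or SPTLC123 array and without DEGS1 2 or DEGS1 3 (adjusted p 0.055 to 0.12), the second without SPTLC123 1, DEGS1 2 or DEGS1 3 (adjusted p 0.065 to 0.078). With the 3 weak arrays left out the values were 0.30 (adjusted p = 0.13) and -0.35 (adjusted p = 0.32). PSMD3, a structural subunit of the lid, was 10.64, 10.48 and 10.58 in scramble, 10.89, 10.92 and 10.93 in SPTLC123 and 10.75, 10.89 and 10.89 in DEGS1 arrays. Both siRNA groups lay above scramble. The rise was 0.34 ± 0.09 in SPTLC123 (adjusted p = 0.030), lost without scramble 2, scramble 3 or any 1 SPTLC123 array (adjusted p 0.075 to 0.098) and without all 3 weak arrays (0.34, adjusted p = 0.084), and in DEGS1 the change was 0.27 (adjusted p = 0.074). PSMD8 was the lid gene with the lowest value in DEGS1, at -0.30 against scramble (adjusted p = 0.25), and PSMD12 in SPTLC123, at -0.07 (adjusted p = 0.78).

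The proteasome genes shared a pattern over single arrays. Of the 39 brighter than the median probe set, 28 had SPTLC123 3 as the lowest array of its group and both DEGS1 2 and DEGS1 3 below DEGS1 1 (71.8%, against 28.8% of 12636 genes above the median). The mean log2 difference of the 39 genes from the scramble mean was 0.18 and 0.16 in SPTLC123 1 and 2 but -0.01 in SPTLC123 3, and 0.06 in DEGS1 1 but -0.16 and -0.12 in DEGS1 2 and 3. The alpha ring, the constitutive beta ring, the ATPases, the lid and the base chaperones each showed this split. So did the other base subunits, the activators and PSMB10. The mean of the 20S assembly chaperones did not, at 0.42, 0.27 and 0.36 in SPTLC123 and 0.06, 0.03 and 0.10 in DEGS1. Within this group PSMG1 did show the split, at 11.10, 10.93 and 10.87 in SPTLC123 and 10.46, 10.16 and 10.32 in DEGS1 arrays. PSMG2, PSMG3 and PSMG4 did not. The inhibitor PSMF1 did not on its brightest probe set, at -0.23, -0.17 and -0.12 in SPTLC123 and -0.26, -0.28 and -0.23 in DEGS1. Its second brightest probe set did, at 10.42, 10.45 and 10.22 in SPTLC123 and 10.22, 9.70 and 9.94 in DEGS1 arrays. Weak 5′ signal moved with these levels, and its part in them was not tested.

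**Figure D3:**
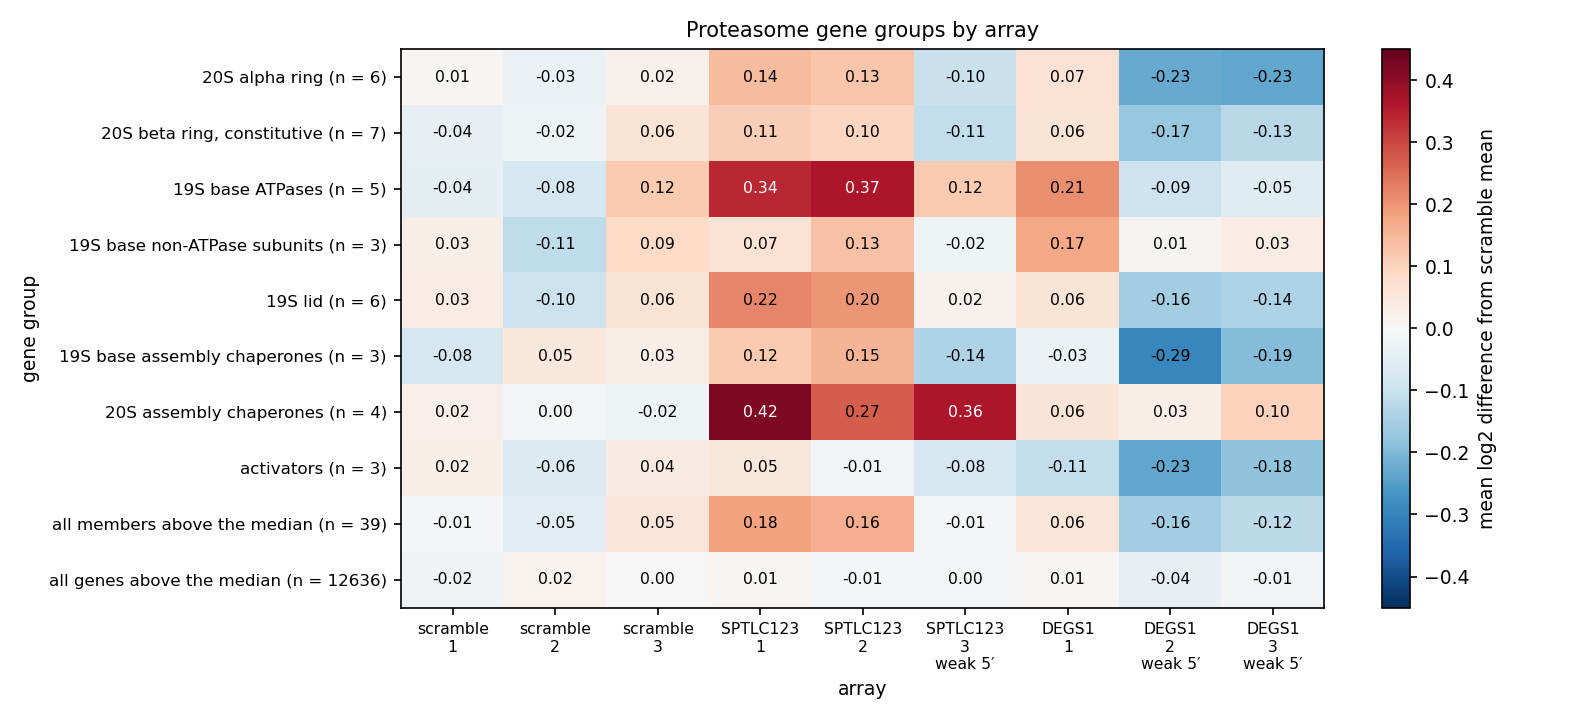
Mean log2 difference from the scramble mean (colour and number) of each proteasome gene group with at least 3 genes above the median (rows, with n genes), by array (columns). The columns marked weak 5′ are lower than their group's other arrays in every proteasome subcomplex shown except the 20S assembly chaperones.

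Other probe sets of the same genes gave larger changes in some cases. Over all 81 probe sets of the 42 genes, tested among all probe sets, 7 were higher and 0 lower in SPTLC123 against scramble, 3 higher and 1 lower in DEGS1 against scramble, and 0 higher and 9 lower in DEGS1 against SPTLC123 (4.52%, 3.42% and 3.69% of all probe sets called). Of 29 other probe sets brighter than the median probe set, 19 were above 0 in SPTLC123 and 10 in DEGS1 against scramble. The genes named next were singled out after their values were seen, for rises in SPTLC123. For PSMC2, the second brightest of 3 probe sets read 8.79, 8.57 and 8.80 in scramble, 9.56, 9.55 and 9.63 in SPTLC123 and 9.10, 9.09 and 9.22 in DEGS1 arrays, a rise of 0.86 in SPTLC123 (adjusted p = 0.0014). The dimmest of the 3 rose by 0.89 (adjusted p = 0.0020), whereas the brightest one changed by 0.19 and was not called. For PSMD11, a lid subunit, the dimmer of 2 probe sets rose by 0.85 in SPTLC123 (adjusted p = 0.0071), and the brightest probe set changed by 0.03. For PSMD12, also of the lid, the dimmer probe set rose by 0.51 (adjusted p = 0.042), against -0.07 in the brightest.

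The probe sets of PSMA5 disagreed in direction in DEGS1 against scramble. Its dim second probe set read 4.49, 4.66 and 5.16 in scramble, 6.66, 6.05 and 6.37 in SPTLC123 and 5.84, 5.98 and 6.02 in DEGS1 arrays, so that both siRNA groups lay above scramble. It was called higher in SPTLC123 (adjusted p = 0.0025) and in DEGS1 (adjusted p = 0.014), where the brightest probe set was 0.29 below scramble. Since 2 of its 3 scramble arrays were under the median probe set, its size is given as a bound, with no array of the dim group counted below that median: at least 2.63-fold higher in SPTLC123 and at least 1.98-fold in DEGS1. Which transcript each probe set reads was not analysed here. PSMG4 rested on 1 probe set, since its 4 others had scramble means between 2.83 and 4.97, and the mean of all 5 was not called (0.26 in SPTLC123, adjusted p = 0.38).

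**Figure D4:**
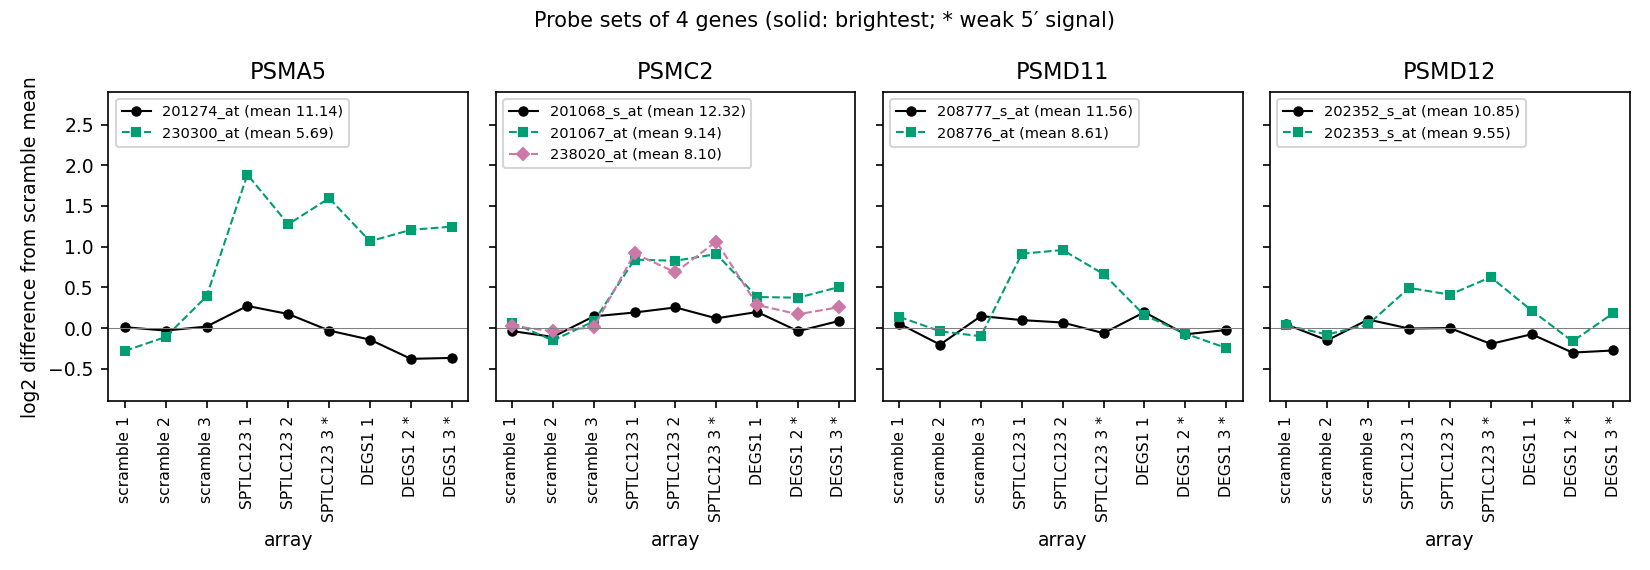
Log2 difference from the scramble mean of every probe set of PSMA5, PSMC2, PSMD11 and PSMD12 in each array; solid lines are the brightest probe set, dashed lines the others, with the mean log2 level in the key. The dashed lines rise above the solid ones in all 3 SPTLC123 arrays of each gene, including the array with weak 5′ signal.

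Other genes of ubiquitin-dependent degradation were counted from a list of 30, of which 25 were measured. This list and those that follow were chosen with earlier results of these data known, so their shares are not independent of those results. In SPTLC123 against scramble 4 rose and 1 fell (20% of 25, against 9.94% of all genes). UBE3C, a ligase that acts at the proteasome, rose by 0.54 (adjusted p = 0.0074), NPLOC4, a cofactor of the unfoldase p97, by 0.39 (adjusted p = 0.020), TXNL1, a thioredoxin bound to the proteasome, by 0.39 (adjusted p = 0.044) and ECPAS, a proteasome adaptor, by 0.31 (adjusted p = 0.041). NGLY1, the glycanase that processes NFE2L1, was lower, at -0.66 (adjusted p = 0.017). Under DEGS1 siRNA, against scramble, UBA1, the ubiquitin-activating enzyme, rose by 0.45 (adjusted p = 0.021) and PITHD1 fell by 0.53 (adjusted p = 0.016), which is 8% of 25 against 9.7% of all genes. In DEGS1 against SPTLC123 1 rose, UBQLN4, and 4 fell, ECPAS, UBQLN1, UBE3C and PITHD1 (20%, against 8.66%). Without the 3 weak arrays UBE3C and NGLY1 kept their calls in SPTLC123 against scramble (adjusted p = 0.040 and 0.027), while NPLOC4, ECPAS and TXNL1 (0.064 to 0.14) and, in DEGS1, UBA1 (0.38) and PITHD1 (0.20) lost theirs, as did all 5 in DEGS1 against SPTLC123 (0.14 to 0.47). NFE2L1 itself changed by -0.02 and -0.12 against scramble and was not called.

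Of the NRF2 list, 24 of 27 genes were measured. This list too was chosen with earlier results of these data known, so its shares give no independent support. In DEGS1 against scramble 9 NRF2 list genes were called lower and 0 higher (37.5%, against 5.04% of all genes lower and 4.66% higher), with a median of -0.28 (all genes -0.01). AKR1B10, an aldo-keto reductase, read 6.70, 6.40 and 7.46 in scramble and 4.91, 4.10 and 4.71 in DEGS1 arrays. Since 2 of these DEGS1 arrays were under the median probe set, the fall is given as at least 3.92-fold. GCLC, which starts glutathione synthesis, fell by 0.66. Of the 9 calls, 2 held without the 3 weak arrays, AKR1B10 at -1.94 (adjusted p = 0.037) and AKR1C2 at -1.57 (adjusted p = 0.048). The 7 others were lower there too but lost their calls (adjusted p 0.075 to 0.59), GCLC at -0.34 (adjusted p = 0.37) among them, and 1.31% of all genes were called in that fit. In SPTLC123 against scramble 2 were called, both higher, ME1 (a log2 change of 0.58) and AKR1B10 (2.83-fold). This is 8.33%, against 9.94% of all genes in either direction, 5.31% higher and 4.63% lower. Of the 24 genes 17 were above 0 (70.8%, against 44.5% of all genes), with a median of 0.13 (all genes -0.03). Groups did not overlap for 9 higher and 2 lower genes (37.5% and 8.33%, against 13.5% and 15.4%). Without the weak arrays the log2 changes were 0.46 for ME1 and 1.55 for AKR1B10. In DEGS1 against SPTLC123 10 were lower and 1 higher, KEAP1, the inhibitor of NRF2 (45.8%, against 8.66%), and 6 of these 11 calls held without the weak arrays, all of them lower. AKR1C3, among the kept calls, was under the median probe set in all 9 arrays, where a change cannot be read well. Of the 6 proteasome genes with the long element, PSME4 was called lower and PSMA4 higher in DEGS1 against scramble, and PSMB3, PSMB9, PSMD12 and PSMD9 were not called. The difference between the lists was not tested.

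**Figure D5:**
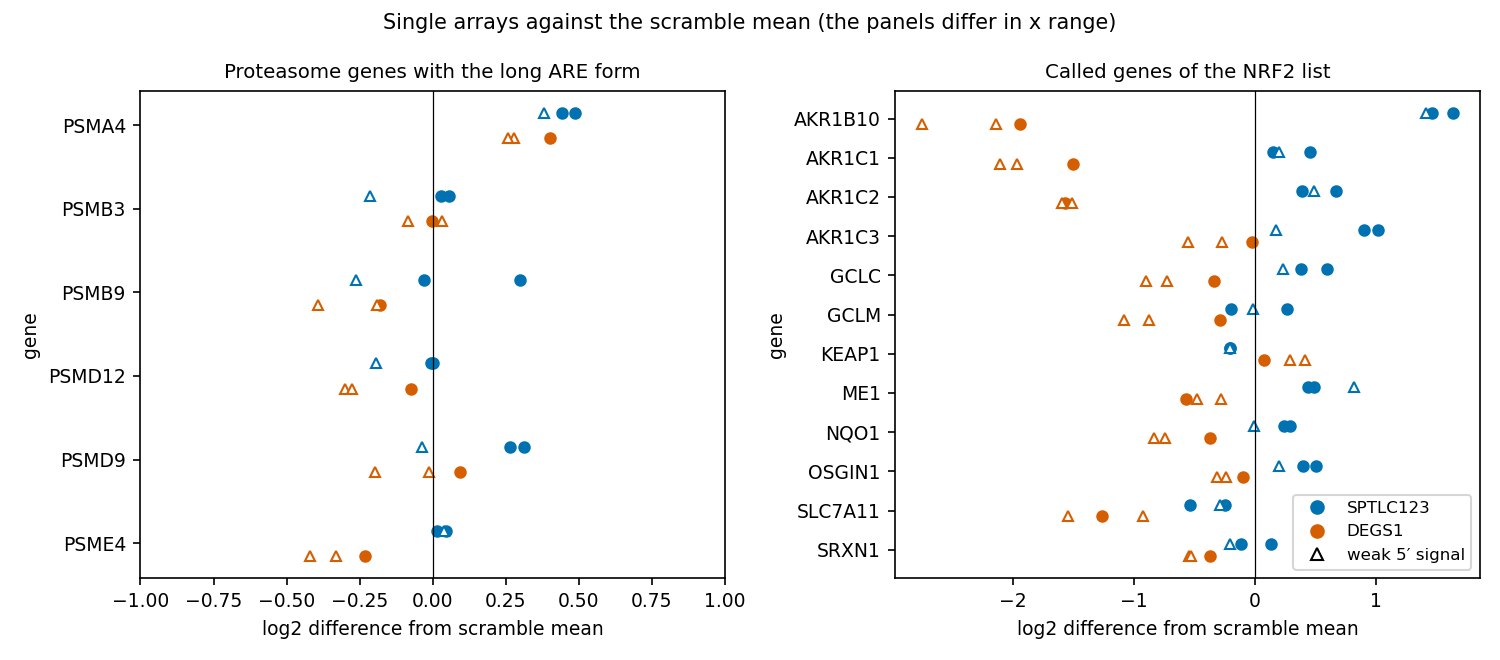
Log2 difference from the scramble mean in single SPTLC123 and DEGS1 arrays, for the 6 proteasome genes with the long antioxidant response element (left) and the called genes of the NRF2 list (right); triangles are arrays with weak 5′ signal, and the panels differ in horizontal range. All 3 DEGS1 arrays lie below 0 for PSME4 and above 0 for PSMA4, and all are below -1.9 for AKR1B10.

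Of the interferon response list, 26 of 29 genes were measured, and 2 were called against scramble. The share was 7.69% in SPTLC123 (against 9.94% of all genes) and 3.85% in DEGS1 (against 9.7%), below the background in both. IFIT1 read 4.77, 5.77 and 5.12 in scramble, 3.43, 3.86 and 3.82 in SPTLC123 and 4.48, 4.41 and 4.46 in DEGS1 arrays. It was called lower in SPTLC123 (adjusted p = 0.0011) and in DEGS1 (adjusted p = 0.042). All 6 siRNA arrays were under the median probe set, so the fall was at least 1.28-fold in either group and its size cannot be read further. ISG15 fell by 0.55 in SPTLC123 (adjusted p = 0.011). With the 3 weak arrays left out, IFIT1 kept its call in SPTLC123 (adjusted p = 0.011) and lost it in DEGS1 (adjusted p = 0.41), and ISG15 was at -0.46 (adjusted p = 0.059). IFIT2 and TAPBP, which loads antigen peptides, were higher in DEGS1 than in SPTLC123 (7.69%, against 8.66%). Both calls were lost without the weak arrays, at log2 changes of 0.38 and 0.46. In SPTLC123 IFIT2 read 4.74, 4.81 and 4.88, near the median probe set (4.87), where a change cannot be read well. PSMG4 and PSMA4, which carry the interferon element, were called higher than scramble in both groups. PSMB4 and PSMB10, which carry it too, were not called. On its brightest probe set only, PSMB4 was higher without overlap in SPTLC123 (0.12) and DEGS1 (0.20), and PSMB10 changed by 0.10 and -0.32.

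The 8 genes that only share the prefix are PSMC3IP, PSME3IP1 and the RNAs PSMA3-AS1, PSMB8-AS1, PSMD14-DT, PSMD6-AS2, PSMD7-DT and PSMG3-AS1. Only PSMA3-AS1 was called, in DEGS1 against SPTLC123, at a log2 change of 0.77 (adjusted p = 0.040), and its groups overlapped. Its annotated span overlaps that of PSMA3. Its levels were 6.71, 6.57 and 7.19 in SPTLC123 and 7.12, 7.85 and 7.81 in DEGS1 arrays, highest in the arrays with weak 5′ signal of each group.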

How the data were processed

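RNA of 9 Huh7 samples was measured on 1-colour Affymetrix arrays, 3 per siRNA group. The authors deposited 1 normalized, linear intensity for each probe set and array. The submitters' processing notes name GCRMA 2.12.1, RMA and limma 2.14.7 without saying which step each did. Array medians ran from 27.92 to 30. The number of arrays limits the precision.

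Intensities were log2-transformed. Each of 19775 genes was read by its brightest 1-gene probe set, and limma 3.58.1 (lmFit, eBayes; R 4.3.3) was fitted to all 9 arrays with 1 mean per group. Tests were two-sided, with Benjamini-Hochberg adjustment over all genes, and were called at 0.05. The fit was tested on simulated data. Values after ± are SE. Genes were named by rule: every called proteasome gene, the catalytic subunits and activators, the extremes of each subcomplex against scramble and up to 5 called genes of each other list. The proteasome genes and the lists were chosen with earlier results of these data known. The main fit did not pair samples by replicate number. Deviations of same-numbered arrays from their group means correlated between -0.28 and 0.54, with 3 of 9 below 0. With 3 arrays per group, some of them with weak 5′ signal, this cannot decide whether the samples were paired. Alternatives were other normalizations, filters, probe-set choices, thresholds, weights and arrays left out; the fits with the actin covariate, without the 3 arrays with weak 5′ signal and over every probe set were added after the data had been seen. Upstream windows came from RefSeq.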

Additional observations from a re-analysis of the deposited data

How the results depend on the processing

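SPTLC1, SPTLC2 and DEGS1, the targeted genes measured, kept direction and call in every alternative. Over the 68 gene and comparison pairs tested, 1164 of 1422 values kept their direction and side of the threshold. A call was lost in 222, gained in 12, and 24 turned their sign without a call in either fit. The pairs include catalytic subunits and activators without a call in the main fit, which could not lose one. The share of lost calls among called pairs is therefore larger than 222 of 1422. No called value reversed. Numbers of proteasome genes called moved as follows. In SPTLC123 against scramble (4) they were 7 with all probe sets of a gene averaged, 2 at a threshold of 0.01, 7 with a pseudocount of 16, 9 with the actin covariate, 2 without the 3 arrays with weak 5′ signal, and 2 to 5 with 1 array left out. In DEGS1 against scramble (4) they were 2 with only the 2 groups fitted, 13 with array weights (3 higher, 10 lower), 2 at 0.01, 7 with the pseudocount, 0 without the weak arrays and 2 to 8 with 1 array left out. In DEGS1 against SPTLC123 (6) they were 18 with array weights, 1 at 0.01, 0 without the weak arrays and 2 to 11 with 1 array left out. Over all genes the counts were 883 at 0.01 and 1178 to 2381 with 1 array left out in SPTLC123 against scramble (1966). In DEGS1 against scramble (1918) they were 4263 with weights, 692 at 0.01, 1114 with the covariate, 259 without the weak arrays and 801 to 3614 with 1 array left out. In DEGS1 against SPTLC123 (1713) they were 3999, 717 and 281 for weights, 0.01 and no weak arrays, and 841 to 2911 with 1 array left out. Fits without the weak arrays have fewer arrays; the cause of the other moves was not tested. With the replicate number as a block 4, 3 and 6 proteasome genes and 2062, 2168 and 1801 genes were called, and among the proteasome genes only PSMA4 in DEGS1 against scramble lost its call (adjusted p = 0.054).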
